A study of Mus musculus with 34 samples.

Results

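The genes of the Nogo receptor pathway were described across RNA from 3 hippocampal sources in mice given fluoxetine or vehicle. They were taken as 5 listed gene symbols in the 3 count tables, out of 24485 symbols, and all 5 had counts in all 34 libraries. The 5 were Rtn4, Rtn4r, Rtn4rl1, Rtn4rl2 and Lingo1. They were chosen by symbol with levels and fluoxetine-to-vehicle fold changes of these libraries already in view, so the values below describe these libraries and are no independent support for a pathway response. No threshold on a measured value is part of the list, and which values decided the choice is not recorded.

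All libraries came from the hippocampus of mice whose genotype is given as WT. Mossy cells, spelled Moosy cells in the labels, are glutamatergic cells of the hilus and had 7 fluoxetine and 6 vehicle libraries. Hippocampus as such had 7 fluoxetine and 6 vehicle libraries, and granule cells, the main output neurons of the dentate gyrus, had 4 of each. Fluoxetine is a selective serotonin reuptake inhibitor. The assay was TRAP, in which a tag on the ribosomes of chosen cells is used to isolate mRNA in translation. The labels name no tag driver, age, sex, dose or duration. They do not say whether the hippocampus libraries hold bound or input RNA, or whether libraries of a group are separate animals, so p-values measure the spread between these libraries, which may be technical.

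Nogo, the product of Rtn4, is a reticulon of the endoplasmic reticulum that also reaches the surface of oligodendrocytes and neurons, where it restrains axon growth. It binds the receptor encoded by Rtn4r, a GPI-anchored protein of leucine-rich repeats with no cytoplasmic part. The receptor therefore signals through partners such as the transmembrane protein LINGO-1, encoded by Lingo1, and activates RhoA and its kinases. In hippocampal neurons the receptor is known to limit dendritic spine turnover and synaptic plasticity. Rtn4rl1 and Rtn4rl2 encode related receptors that bind, in that order, chondroitin sulfate proteoglycans and myelin-associated glycoprotein.

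Upstream sequence is shown for genes whose level was higher in fluoxetine libraries of mossy cells or hippocampus, and for Rtn4, which was not higher. The sequences are the 250 bases before a transcription start in the RefSeq table of GRCm38.p6, without bases inside a GENCODE M21 exon. The table held windows for 4 of the 5 genes. The Rtn4r window is chr16:18127392-18127641 on the plus strand, the Rtn4rl2 window chr2:84886711-84886942 on the minus strand, and the Lingo1 window chr9:56635649-56635898 on the minus strand, at the inner of 2 starts. The Rtn4 window is chr11:29692648-29692897 on the plus strand, before the first of 3 starts. Capitals mark a GC box (GGGCGG) or a CCAAT box (CCAAT), read on both strands.
Rtn4r: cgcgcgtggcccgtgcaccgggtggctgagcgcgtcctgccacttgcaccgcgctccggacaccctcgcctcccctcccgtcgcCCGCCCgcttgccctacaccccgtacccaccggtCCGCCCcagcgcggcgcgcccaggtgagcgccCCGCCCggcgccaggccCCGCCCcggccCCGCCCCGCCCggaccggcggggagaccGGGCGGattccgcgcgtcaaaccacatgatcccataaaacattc
Rtn4rl2: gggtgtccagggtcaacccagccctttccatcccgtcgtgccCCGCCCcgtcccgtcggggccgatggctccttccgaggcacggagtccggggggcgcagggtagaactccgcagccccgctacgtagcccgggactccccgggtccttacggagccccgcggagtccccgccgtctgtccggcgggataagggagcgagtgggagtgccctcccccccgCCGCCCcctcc
Lingo1: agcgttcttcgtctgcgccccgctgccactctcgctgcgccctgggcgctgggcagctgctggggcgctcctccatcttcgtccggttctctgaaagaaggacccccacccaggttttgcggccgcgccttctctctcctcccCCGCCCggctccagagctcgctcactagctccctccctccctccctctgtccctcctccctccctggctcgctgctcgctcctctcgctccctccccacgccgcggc
Rtn4: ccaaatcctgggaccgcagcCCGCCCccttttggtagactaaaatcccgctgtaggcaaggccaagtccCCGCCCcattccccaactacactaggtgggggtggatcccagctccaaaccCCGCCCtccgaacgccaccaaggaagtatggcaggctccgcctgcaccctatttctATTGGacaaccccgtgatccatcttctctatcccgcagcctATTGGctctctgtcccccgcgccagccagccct

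The Rtn4r window held 7 GC boxes, counting overlapping ones, and no CCAAT box. The Rtn4rl2 window held 2 GC boxes, the Lingo1 window 1, and the Rtn4 window 3 together with 2 CCAAT boxes. Of 32851 windows of 250 bases in the table, 32.7% held a GC box and 33.8% a CCAAT box. None of these 4 windows held a cyclic AMP response element (TGACGTCA, in 1.55% of windows), an E-box (CACGTG, in 6.02%) or an AP-1 motif (TGANTCA, in 6.75%). The GC content of the full windows was 77.2% for Rtn4r, 73.6% for Rtn4rl2, 70.4% for Lingo1 and 61.2% for Rtn4, against a median of 52.4%.

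Rtn4 lies at chr11:29692947-29744331 (GRCm38) on the plus strand and has 10 annotated transcripts, which the gene counts do not separate. Its exons share 1284 bases, 18.4% of their length, with exons of Eml6 on the opposite strand, and the strand setting of the counting is not given in the sources used here. Eml6 averaged 28.0 ± 3.17 CPM in hippocampus fluoxetine and 23.2 ± 1.98 CPM in hippocampus vehicle libraries. Rtn4r lies at chr16:18127642-18152408 on the plus strand, Rtn4rl1 at chr11:75193783-75267769 on the plus strand, Rtn4rl2 at chr2:84871924-84886710 on the minus strand and Lingo1 at chr9:56618475-56796468 on the minus strand. The longest transcript of Rtn4r had a GC content of 62.7%, that of Rtn4rl1 56.9%, that of Rtn4rl2 68.5% and that of Lingo1 58.0%. That of Rtn4 had 46.0%, and the median of 14779 genes was 49.7%.

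Total counts ranged from 23.6 to 43.5 M reads in mossy-cell libraries, from 23.9 to 44.95 M in hippocampus and from 14.1 to 39.99 M in granule cells. The ribosomal RNA precursor Rn45s took 15.3% to 22.5% of counts in mossy cells, 11.5% to 15.3% in hippocampus and 0.694% to 7.71% in granule cells. Against hippocampus vehicle libraries, granule-cell vehicle libraries were higher in 6 of 6 granule-cell markers, where 29.7% of 16124 genes were called and 16.5% were higher. Summed oligodendrocyte markers of granule-cell vehicle libraries were at 553 to 676 CPM, against 810 to 1135 CPM in hippocampus vehicle. Of the 7 genes, 3 were called lower. Astrocyte markers were at 700 to 932 against 1045 to 1318 CPM, with 1 of 6 called lower. Of 6 microglia markers 1 was higher and 1 lower. CA3 pyramidal markers were at 640 to 779 against 504 to 593 CPM, with 1 of 5 called higher. Mossy-cell vehicle libraries were higher in 6 of 8 mossy-cell markers and lower in 2, where 64% of 15922 genes were called, 31.3% higher and 32.8% lower. They were lower in 7 of 7 oligodendrocyte, 6 of 6 astrocyte, 6 of 6 microglia and 5 of 6 granule-cell markers. Of 5 CA3 pyramidal markers 2 were higher and 3 lower. Of 5 CA1 and CA2 pyramidal markers 3 were higher and 2 lower, with sums of 436 to 801 against 287 to 347 CPM. Mossy-cell vehicle libraries were also higher in 6 of 7 interneuron markers, whose summed level was 2810 to 3949 CPM, against 475 to 536 CPM in hippocampus vehicle. Summed astrocyte markers in fluoxetine library 4 reached 1102 CPM in mossy cells and 5144 CPM in hippocampus, against medians of 356 and 1544 CPM over all fluoxetine libraries of each source. The choroid plexus gene Ttr had 209, 252 and 38.6 CPM in mossy-cell vehicle libraries 1, 2 and 4 and 3465, 5157 and 1402 CPM in the hippocampus vehicle libraries of the same numbers. In the other 3 vehicle libraries it was at most 0.941 CPM in mossy cells and 11.1 CPM in hippocampus.

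Levels are given in CPM, the count of a gene scaled to library size with TMM factors. Per kilobase of exon, Rtn4 was usually the most abundant of the 5 genes and Rtn4rl2 the least. In mossy-cell fluoxetine libraries Lingo1 averaged 75.0 ± 21.8 CPM per kb, Rtn4 56.6 ± 4.04, Rtn4rl1 41.2 ± 13.03, Rtn4r 40.5 ± 7.25 and Rtn4rl2 9.86 ± 3.26 (SD, n = 7). In mossy-cell vehicle libraries Rtn4 averaged 55.5 ± 5.46 CPM per kb, Lingo1 46.2 ± 4.49, Rtn4rl1 24.3 ± 2.86, Rtn4r 22.1 ± 1.66 and Rtn4rl2 7.07 ± 2.13 (SD, n = 6). Rtn4rl1 and Rtn4r differed by less than the larger of their SDs in both groups. The order Rtn4, Lingo1, Rtn4rl1, Rtn4r, Rtn4rl2 held in 19 of 34 libraries, and Rtn4rl2 was the lowest in all 34.

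**Figure D1:**
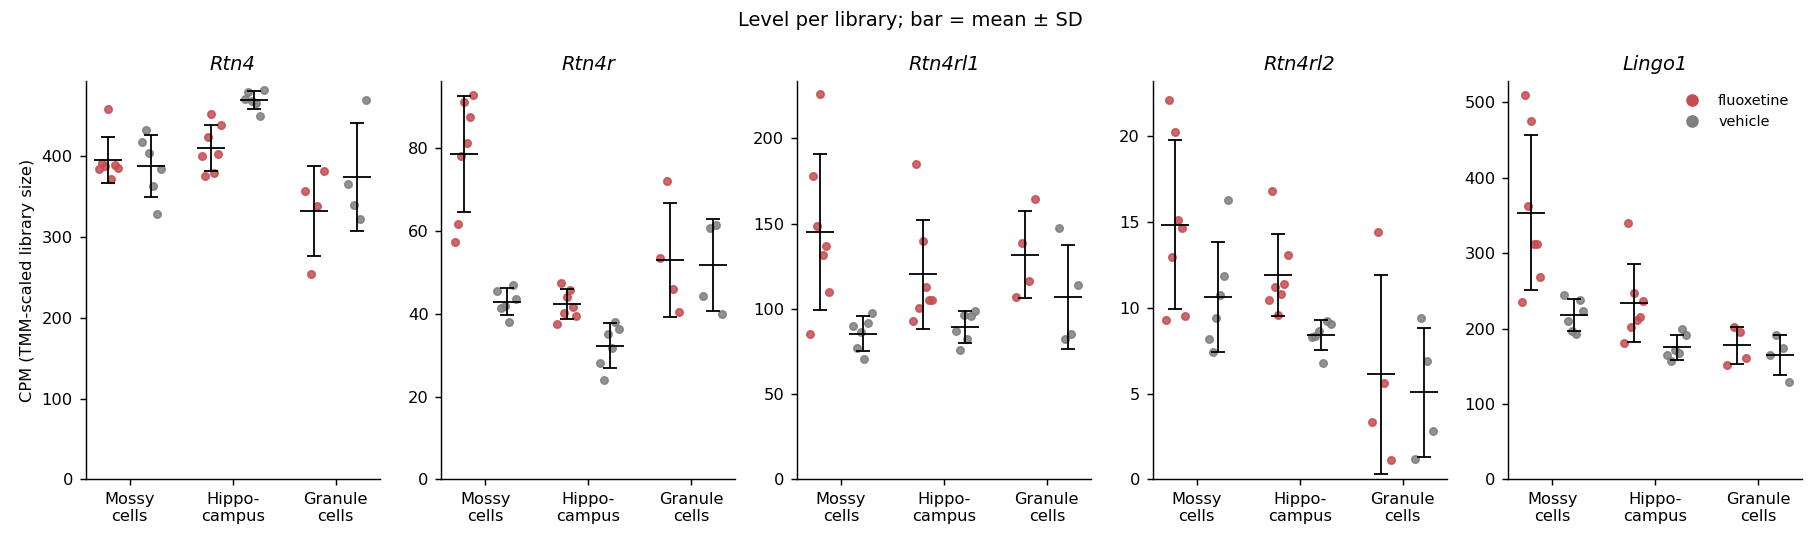
CPM of each gene in each library (points) of the 6 groups, fluoxetine left of vehicle, with bars for the mean and SD; the vertical axes start at 0 and differ between genes. Rtn4r in mossy cells shows 7 fluoxetine libraries above all 6 vehicle libraries, and Rtn4 in hippocampus shows most fluoxetine libraries below the vehicle libraries.

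In mossy cells the receptor gene Rtn4r, its homolog Rtn4rl1 and the co-receptor gene Lingo1 were higher after fluoxetine, by 1.83-, 1.70- and 1.62-fold, while the ligand gene Rtn4 was at about the same level in both groups. Thus 3 of 5 genes were called higher and none lower at an adjusted p below 0.05 (edgeR quasi-likelihood test, Benjamini-Hochberg over 14229 genes), against 9.31% of all genes tested called either way, 8.05% called higher and 1.26% lower. Since the genes were listed with such results known, nothing is read from that count.

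Rtn4r had 57.4, 61.6, 78.1, 91.2, 81.3, 87.5 and 92.8 CPM in fluoxetine libraries 1 to 7 of mossy cells, against 45.6, 41.3, 41.9, 38.0, 47.0 and 43.6 CPM in vehicle libraries 1 to 6. Every fluoxetine library was above every vehicle library, as in 2.45% of the genes tested. The log2 fold change was 0.87 ± 0.11 (SE; adjusted p = 0.000378), at the 97.3rd percentile of all genes tested.

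Rtn4rl1 had 85.5, 178, 149, 226, 131, 137 and 110 CPM in mossy-cell fluoxetine libraries 1 to 7, against 90.2, 76.8, 86.2, 70.6, 91.7 and 97.6 CPM in vehicle libraries. Fluoxetine library 1 lay within the vehicle range and the other 6 lay above it. Its log2 fold change was 0.76 ± 0.16 (adjusted p = 0.00543).

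Lingo1 had 236, 509, 362, 475, 312, 312 and 269 CPM in mossy-cell fluoxetine libraries 1 to 7, against 245, 210, 197, 193, 237 and 224 CPM in vehicle libraries. Again fluoxetine library 1 overlapped the vehicle libraries and 6 were above all of them, with libraries 2 and 4 highest. For Lingo1 this was a log2 fold change of 0.70 ± 0.15 (adjusted p = 0.00513).

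Rtn4rl2, which encodes a receptor for myelin-associated glycoprotein, had 9.28, 14.7 and 22.1 CPM as the lowest, median and highest of 7 fluoxetine libraries, against 7.42, 10.1 and 16.3 CPM of 6 vehicle libraries. The groups overlapped, and the log2 fold change of 0.48 ± 0.22 did not pass (adjusted p = 0.187; 95% interval 0.05 to 0.90). Rtn4 had 372, 388 and 458 CPM in fluoxetine libraries, against 328, 394 and 432 CPM in vehicle libraries, with a log2 fold change of 0.03 ± 0.08 (adjusted p = 0.876; 95% interval -0.12 to 0.18).

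Markers of neurons and of other cells moved with the same groups. Of the markers tested in mossy cells, 2 of 6 for astrocytes, 3 of 5 for microglia, 2 of 5 for CA3 pyramidal cells and 3 of 8 for mossy cells themselves were higher after fluoxetine. So were 1 of 7 oligodendrocyte markers and 1 of 5 CA1 and CA2 pyramidal markers. Of 7 interneuron markers 1 was higher and 1 lower. Ttr and 1 of 6 granule-cell markers were lower. Summed CA3 markers had 732, 725 and 848 CPM in fluoxetine libraries 2, 3 and 4, at most 532 CPM in the other fluoxetine libraries and at most 480 CPM in vehicle libraries. Libraries 2, 3 and 4 were also the 3 highest for Rtn4rl1 and Lingo1. The part of these markers' cells in the result was not tested. With fluoxetine libraries 2 and 4 left out, the log2 fold change was 0.89 for Rtn4r, 0.52 for Rtn4rl1 (adjusted p = 0.0195) and 0.46 for Lingo1 (adjusted p = 0.0141), all 3 still past the threshold. With vehicle libraries 1, 2 and 4 left out, the values were 0.81 for Rtn4r (adjusted p = 0.045), 0.64 for Rtn4rl1 (adjusted p = 0.171) and 0.67 for Lingo1 (adjusted p = 0.133), and 28 of all genes were called, with 3 vehicle libraries in the fit. In bulk RNA, a change in the share of a cell type and a change in RNA per cell cannot be told apart.

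GC content also moved with fluoxetine in mossy cells. Genes with a longest transcript of at least 55% GC had a median log2 fold change of 0.14, with 14.05% called higher, and genes under 45% GC had a median of -0.10, with 4.62% called higher. Rtn4r, Rtn4rl1, Rtn4rl2 and Lingo1 belong to the 55% group. With a per-library offset for GC content and length, the log2 fold change was 0.71 for Rtn4r, 0.59 for Rtn4rl1 and 0.50 for Lingo1, all still past the threshold.

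**Figure D2:**
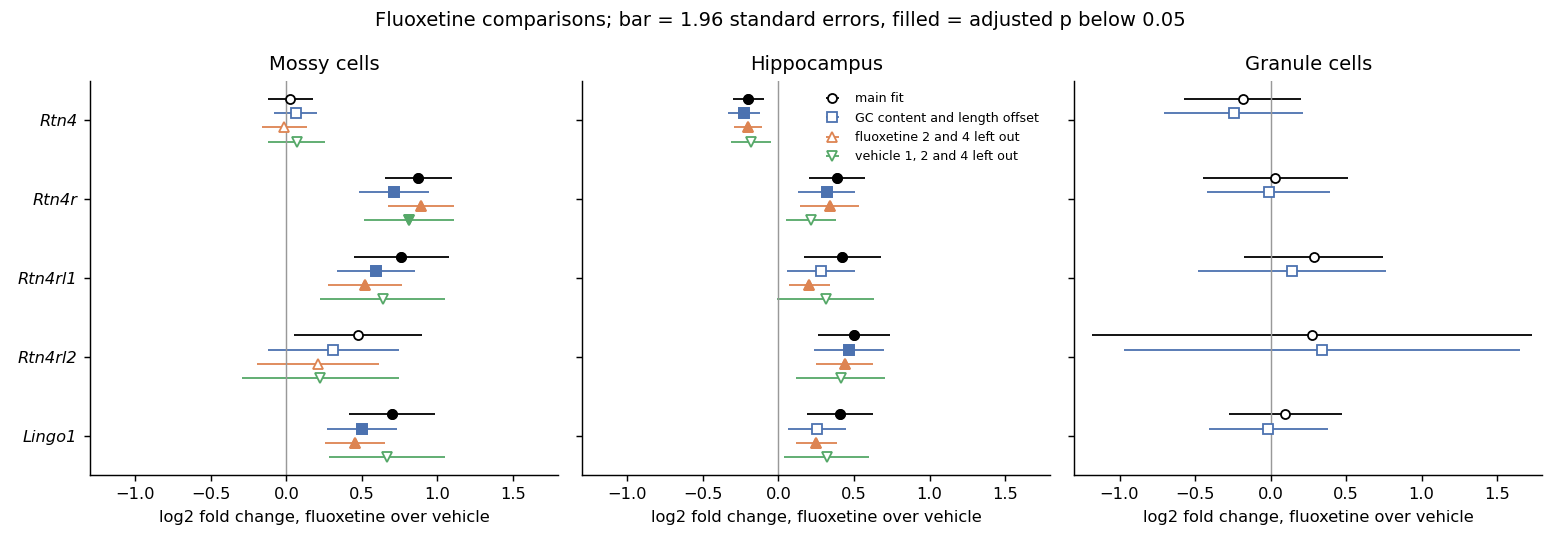
Log2 fold change, fluoxetine over vehicle, of the 5 genes in mossy cells, hippocampus and granule cells, in the fit as reported and in 3 alternatives (1 in granule cells); bars are 95% intervals and filled symbols have an adjusted p below 0.05. Rtn4r in mossy cells, at 0.87, is filled in all 4 fits, and no symbol is filled in granule cells.

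In hippocampus all 3 receptor genes and Lingo1 were higher after fluoxetine, by 1.31- to 1.42-fold, and Rtn4 was lower, at 0.871 of the vehicle level. Thus 4 genes were called higher and 1 lower, in a comparison where 30.2% of 15596 genes were called, 15.5% higher and 14.7% lower. Among all genes called, 51.2% were higher, and 33.9% with the GC content and length offset.

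Rtn4r had 37.5, 47.5, 40.3, 44.1, 45.8, 41.6 and 39.4 CPM in hippocampus fluoxetine libraries 1 to 7, against 28.0, 23.9, 35.1, 31.8, 38.1 and 36.4 CPM in vehicle libraries. Only fluoxetine library 1 fell within the vehicle range. The log2 fold change was 0.39 ± 0.10 (adjusted p = 0.00698).

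Rtn4rl2 had 10.5, 16.8, 11.2, 9.58, 10.8, 11.4 and 13.1 CPM in fluoxetine libraries, against 8.31, 8.34, 8.63, 6.81, 9.26 and 9.06 CPM in vehicle libraries. The groups did not overlap, as in 4.6% of genes in this direction, at a log2 fold change of 0.50 ± 0.12 (adjusted p = 0.00619).

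Rtn4rl1 had 92.7, 185, 101, 140, 113, 105 and 105 CPM in fluoxetine libraries, against 86.9, 75.7, 96.3, 82.6, 95.8 and 99.0 CPM in vehicle libraries. Lingo1 had 181, 340, 202, 247, 212, 216 and 236 CPM in fluoxetine libraries, against 165, 157, 171, 168, 200 and 192 CPM in vehicle libraries. For both genes fluoxetine library 2 was the highest, library 4 the second highest, and library 1 overlapped the vehicle range. The log2 fold change was 0.42 ± 0.13 for Rtn4rl1 (adjusted p = 0.0205) and 0.41 ± 0.11 for Lingo1 (adjusted p = 0.0114).

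Rtn4, the ligand gene, had 400, 375, 423, 452, 379, 403 and 438 CPM in fluoxetine libraries, against 471, 479, 468, 465.7, 450 and 482 CPM in vehicle libraries. All but fluoxetine library 4 were below every vehicle library. Its log2 fold change was -0.20 ± 0.05 (adjusted p = 0.00962).

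In these libraries 5 of 6 astrocyte markers and 5 of 6 microglia markers were higher after fluoxetine, 2 of 7 oligodendrocyte markers were lower, and 3 of 3 choroid plexus markers tested were lower. Neuronal markers moved too, with 3 of 8 mossy-cell markers higher, 3 of 6 granule-cell markers lower and 1 higher, and 3 of 7 interneuron markers lower and 2 higher. Of 5 CA3 pyramidal markers 2 were higher and 1 lower, and 1 of 5 CA1 and CA2 pyramidal markers was lower. Summed granule-cell markers were at 366 to 489 CPM in fluoxetine and 495 to 579 CPM in vehicle libraries, without overlap. They were lowest in fluoxetine libraries 2 and 4, the 2 highest for Rtn4rl1 and Lingo1. The part of these cells in the values was not tested. With fluoxetine libraries 2 and 4 left out, all 5 genes still passed, with a log2 fold change of 0.20 for Rtn4rl1 and 0.25 for Lingo1. With vehicle libraries 1, 2 and 4 left out, none passed, at log2 fold changes of 0.22 for Rtn4r, 0.31 for Rtn4rl1, 0.41 for Rtn4rl2, 0.32 for Lingo1 and -0.18 for Rtn4 (adjusted p from 0.0954 to 0.219). The GC content and length offset ended the call for Rtn4rl1 (0.28, adjusted p = 0.0699) and Lingo1 (0.26, adjusted p = 0.0543). That offset moved the median of all genes to -0.06, and Rtn4rl1 stood 0.34 and Lingo1 0.32 above it. Rtn4rl1 also missed the threshold without vehicle library 2 (adjusted p = 0.0503).

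In granule cells none of the 5 genes passed, in a comparison where 0% of 14236 genes were called by edgeR. Of all genes, 1056 had an unadjusted p below 0.05, and the DESeq2 Wald test called 77. Summed astrocyte markers were at 1013 to 1436 CPM in fluoxetine and 700 to 932 CPM in vehicle libraries, without overlap. Oligodendrocyte markers were at 722 to 916 against 553 to 676 CPM, and CA3 markers at 783 to 897 against 640 to 779 CPM. Granule-cell markers were lower, at 884 to 1041 against 1126 to 1298 CPM. Sums of the other marker lists overlapped. The part of these cells in the values was not tested. Rtn4r had 53.4, 72.1, 46.0 and 40.4 CPM in fluoxetine libraries, against 44.3, 60.8, 61.5 and 40.0 CPM in vehicle libraries. Its log2 fold change was 0.03, with a 95% interval of -0.45 to 0.51.

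Lingo1 had 151, 202, 196 and 161 CPM in granule-cell fluoxetine libraries, against 165, 191, 175 and 129 CPM in vehicle libraries, a log2 fold change of 0.10 (95% interval -0.28 to 0.47). Rtn4rl1 had 107, 139, 116 and 164 CPM, against 148, 82.1, 85.1 and 114 CPM in vehicle, a log2 fold change of 0.28 (-0.18 to 0.75). Rtn4 had 357, 254, 338 and 381 CPM, against 366, 339, 322 and 470 CPM in vehicle, a log2 fold change of -0.18 (-0.57 to 0.20). In each of these genes the groups overlapped.

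Rtn4rl2 was scarce and uneven in granule cells, with 3.36, 14.4, 5.62 and 1.16 CPM in fluoxetine libraries and 1.19, 9.41, 6.91 and 2.82 CPM in vehicle libraries. Counts ran from 40 to 396 in fluoxetine and from 18 to 294 in vehicle libraries. Libraries 2 and 3 of each group were the higher ones, and they also had more of the ribosomal RNA precursor Rn45s, at 7.71% and 1.75% of counts in fluoxetine and 3.59% and 5.42% in vehicle, against 0.694% to 1.13% in the other 4. Ttr stood at 1086 and 564 CPM in fluoxetine libraries 2 and 3 and at 524 and 203 CPM in vehicle libraries 2 and 4, against 10.1 to 26.01 CPM in the other 4. Fluoxetine library 2, the highest in both measures, was also the highest for Rtn4r. The part of either measure in these levels was not tested. Its 95% interval for the log2 fold change was -1.18 to 1.73, so a change of the size seen in hippocampus was not detectable here.

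The fluoxetine effects of 2 sources were compared by the interaction, the difference between their log2 fold changes. None of the 5 genes passed in any of the 3 interactions. Between mossy cells and hippocampus, 0.044% of 15922 genes were called, and the difference was 0.51 ± 0.15 for Rtn4r (adjusted p = 0.1995), 0.36 for Rtn4rl1, 0.32 for Lingo1, 0.25 for Rtn4 (adjusted p = 0.287) and -0.002 for Rtn4rl2. Between granule and mossy cells, 0.181% of 15444 genes were called, and Rtn4r differed by -0.84 ± 0.24 (adjusted p = 0.118), which passed with the DESeq2 Wald test (adjusted p = 0.0409) and without granule-cell fluoxetine library 2 (adjusted p = 0.0201). Between granule cells and hippocampus, 1.98% of 16124 genes were called, and the 5 differences ran from -0.35 for Rtn4r to 0.03 for Rtn4.

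Libraries of mossy cells and hippocampus with the same replicate number deviated together over all genes, but the 5 genes did so only in part. Fluoxetine library 2 was the highest for Rtn4rl2 and Lingo1 in both sources, and library 4 was second for Lingo1 in both. Fluoxetine library 1 was the lowest for Rtn4r, Rtn4rl1 and Lingo1 in both. In contrast, Rtn4rl2 in fluoxetine library 4 was second highest in mossy cells, at 20.2 CPM, and lowest in hippocampus, at 9.58 CPM. Rtn4r in fluoxetine library 2 was second lowest in mossy cells, at 61.6 CPM, and highest in hippocampus, at 47.5 CPM. With the replicate number as a block, the number of all genes called in the interaction between these sources was 116, against 7 in the fit without it, and again none of the 5 genes passed.

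**Figure D3:**
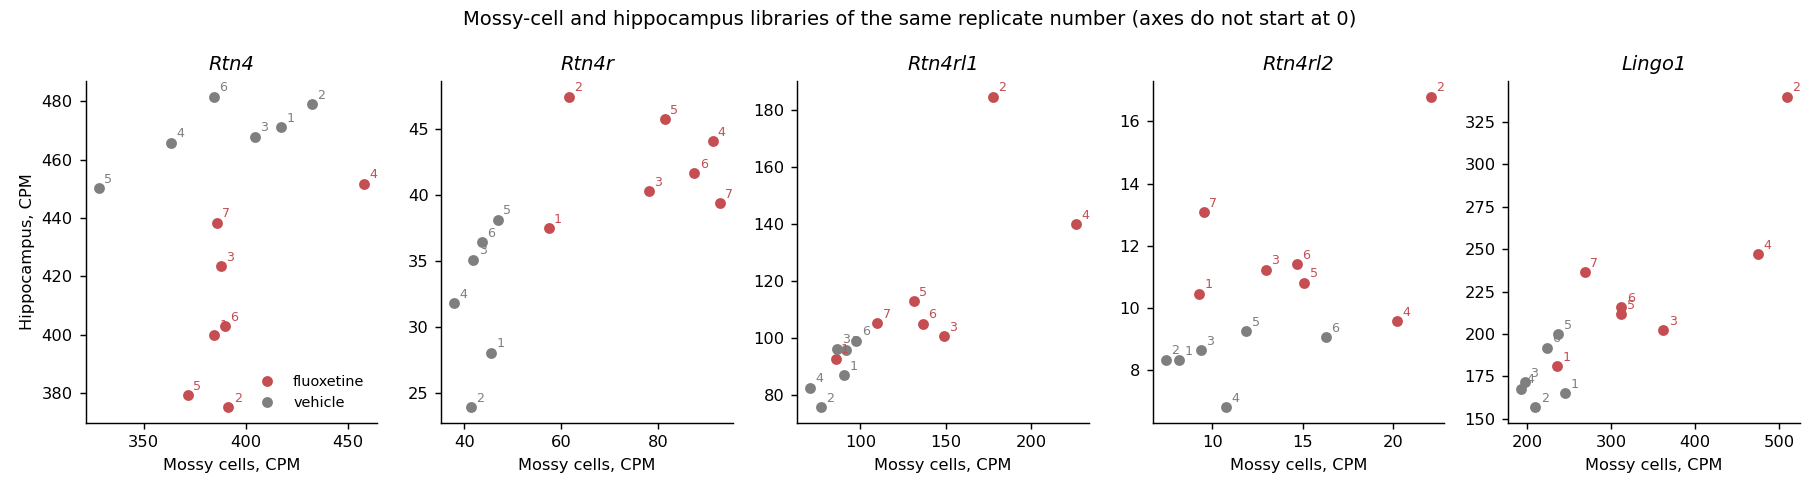
CPM in mossy-cell libraries (horizontal) against hippocampus libraries of the same replicate number (vertical), 1 panel per gene, fluoxetine in red and vehicle in grey; axes do not start at 0. Fluoxetine library 2 stands at 509 CPM in mossy cells and 340 CPM in hippocampus for Lingo1.

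Between mossy-cell and hippocampus vehicle libraries, 1 of the 5 genes was called higher and 1 lower. With 64% of all genes called, nothing is read from that count. Mossy cells had less Rtn4 than hippocampus, at 388 ± 38.2 against 469 ± 11.2 CPM (SD, n = 6 each; log2 fold change -0.28, adjusted p = 0.000462), and more Rtn4r, at 42.9 ± 3.22 against 32.2 ± 5.43 CPM (0.41, adjusted p = 0.00172). In that comparison 64% of 15922 genes were called, 31.3% higher and 32.8% lower. Lingo1 averaged 218 ± 21.2 CPM in mossy cells and 175 ± 16.7 CPM in hippocampus, a log2 fold change of 0.31 that did not pass (adjusted p = 0.0621) and passed with the replicate block (adjusted p = 0.00117). With the GC content and length offset, which moved the median of all genes to 0.26, Rtn4 stood at 0.13 and Rtn4r at 0.13, both 0.13 below that median, and neither passed.

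Granule-cell vehicle libraries had more Rtn4r than hippocampus vehicle libraries, at 51.7 ± 11.1 (n = 4) against 32.2 ± 5.43 CPM (n = 6), a log2 fold change of 0.68 ± 0.16 (adjusted p = 0.00223). There 29.7% of 16124 genes were called, 16.5% higher and 13.2% lower. Rtn4 was lower, at 374 ± 66.4 against 469 ± 11.2 CPM (-0.32, adjusted p = 0.0347), a call lost without granule-cell vehicle library 1, 2 or 3. With the GC content and length offset, which moved the median of all genes to 0.29, Rtn4r stood at 1.23 (adjusted p = 2.57e-07), 0.94 above that median, and Rtn4 at -0.16 (adjusted p = 0.411), 0.45 below it. Against mossy-cell vehicle libraries, where 46.1% of 15444 genes were called and 22.4% were lower, granule-cell vehicle libraries had less Lingo1, at 165 ± 26.3 against 218 ± 21.2 CPM (-0.44, adjusted p = 0.0454). This call was lost without granule-cell vehicle library 1, 3 or 4, and the offset for GC content and length gave 0.18. Under the same offset Rtn4r was 1.12 higher in granule than in mossy cells (log2, adjusted p = 2.36e-06), against 0.23 in the fit as reported (adjusted p = 0.27).

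The make-up of the receptor family, as shares of its summed CPM per kb, was a description only. Rtn4r made up 45.1 ± 7.72% in mossy-cell fluoxetine and 41.6 ± 2.55% in mossy-cell vehicle libraries, against 34.7 ± 3.41% in hippocampus fluoxetine and 34.8 ± 2.39% in hippocampus vehicle libraries. The share of Rtn4rl2 was 5.52 ± 4.25% in granule-cell fluoxetine and 5.62 ± 4.07% in granule-cell vehicle libraries. For Rtn4r, fluoxetine and vehicle means differed by less than the larger SD in all 3 sources. Summed receptor level over Rtn4, per kb, was 1.61 ± 0.253 in mossy-cell fluoxetine and 0.974 ± 0.168 in mossy-cell vehicle libraries. In hippocampus the same ratio was 1.10 ± 0.255 in fluoxetine and 0.710 ± 0.0914 in vehicle libraries. In granule cells it was 1.51 ± 0.573 in fluoxetine libraries, with library 2 at 2.37, and 1.16 ± 0.230 in vehicle libraries.

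**Figure D4:**
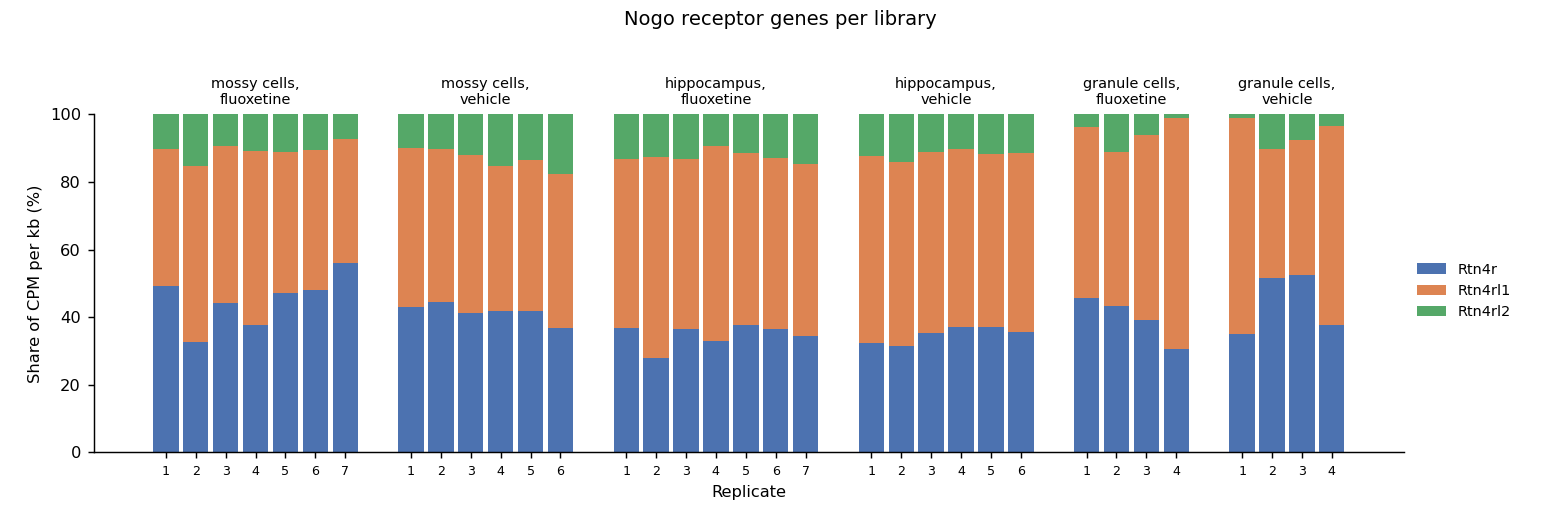
Share of Rtn4r, Rtn4rl1 and Rtn4rl2 in their summed CPM per kb of exon (stacked bars to 100%), 1 bar per library, numbered by replicate. Rtn4rl2 is the smallest share in every library, with a mean of 5.52% in granule-cell fluoxetine and 5.62% in granule-cell vehicle libraries.

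Another 37 genes of the pathway were counted by role, of which 36 could be tested in mossy cells and in hippocampus. These lists were also chosen with earlier results of these data known. The counts below therefore describe these libraries, and no pathway response is read from them. In mossy cells 13 were higher after fluoxetine and none lower, with a median log2 fold change of 0.40, against -0.003 over all genes, of which 8.05% were called higher and 1.26% lower. In hippocampus 20 were higher and 2 lower, with a median of 0.24, against 0.001 over all genes, of which 15.5% were called higher and 14.7% lower. Without hippocampus vehicle library 2 the counts were 12 higher and 2 lower. Without vehicle libraries 1, 2 and 4 only 1 was higher in mossy cells, while hippocampus had 3 higher and 1 lower, and the medians were 0.36 for mossy cells and 0.22 for hippocampus. Without fluoxetine libraries 2 and 4, mossy cells had 10 higher and hippocampus 13 higher and 3 lower. The GC content and length offset gave 12 higher for mossy cells, with 11 higher and 6 lower for hippocampus. In granule cells none of 35 passed with edgeR and 2 with DESeq2.

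All 3 other reticulons were higher in mossy cells, with log2 fold changes of 0.55 for Rtn1, 0.43 for Rtn3 and 0.43 for Rtn2. In hippocampus Rtn2 (0.25) and Rtn1 (0.23) passed, and Rtn3 (0.14) did not.

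Of 9 other ligands, 4 were higher in mossy cells and 7 in hippocampus. They include Bai1 and Bai2, adhesion receptors of neurons that bind Nogo receptors, and the proteoglycan gene Ncan. Bai1 averaged 267 ± 50.8 CPM in mossy-cell fluoxetine and 146 ± 20.3 CPM in mossy-cell vehicle libraries (log2 fold change 0.87, adjusted p = 0.00076), and was 0.54 higher in hippocampus on the same scale. Bai2 was 0.83 higher in mossy cells and 0.55 in hippocampus. Ncan averaged 218 ± 63.8 CPM in mossy-cell fluoxetine and 127 ± 14.6 CPM in vehicle libraries (0.78), and Omg, the gene of oligodendrocyte myelin glycoprotein, was 0.36 higher. In hippocampus Ncan (0.67) and Bcan (0.80), proteoglycan genes that astrocytes also express, were higher.

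Of 3 genes whose products antagonise the receptor, Olfm1 was higher in mossy cells (0.50), and Crtac1 (0.40) and Olfm1 (0.15) in hippocampus. Of 6 co-receptors and LINGO paralogs, Lingo3 (0.61) and Ngfr (1.16), which encodes the neurotrophin receptor that pairs with LINGO-1, were higher in mossy cells. Ngfr was at 5.92 ± 4.11 CPM in those fluoxetine libraries and 2.64 ± 0.628 CPM in vehicle libraries. In hippocampus Lingo3 (0.43), Lingo2 (0.24) and Tnfrsf19 (0.31) were higher. Among other receptors of the same ligands, the proteoglycan receptor genes Ptprs and Ptprf and the tetraspanin gene Tspan3 were higher in both sources, in that order by 0.76, 0.72 and 0.49 (mossy cells) and by 0.52, 0.56 and 0.30 (hippocampus). Pirb had no count in any of the 34 libraries.

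Downstream, none of 11 genes passed in mossy cells. In hippocampus Rhoa (-0.28), the GTPase activated by the receptor complex, and its kinase gene Rock2 (-0.25) were lower. Another 3 were higher, among them Egfr (0.57), which receptor signalling can transactivate, and the cofilin phosphatase gene Ssh1 (0.39). The related kinase gene Rock1 went opposite to Rock2. For Rock1, 6 of 7 hippocampus fluoxetine libraries were above every vehicle library, and for Rock2 7 of 7 were below. No share over all genes is given for these counts, so nothing is read from them. Rhoa averaged 134 ± 11.1 CPM in hippocampus fluoxetine and 163 ± 15.7 CPM in hippocampus vehicle libraries.

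**Figure D5:**
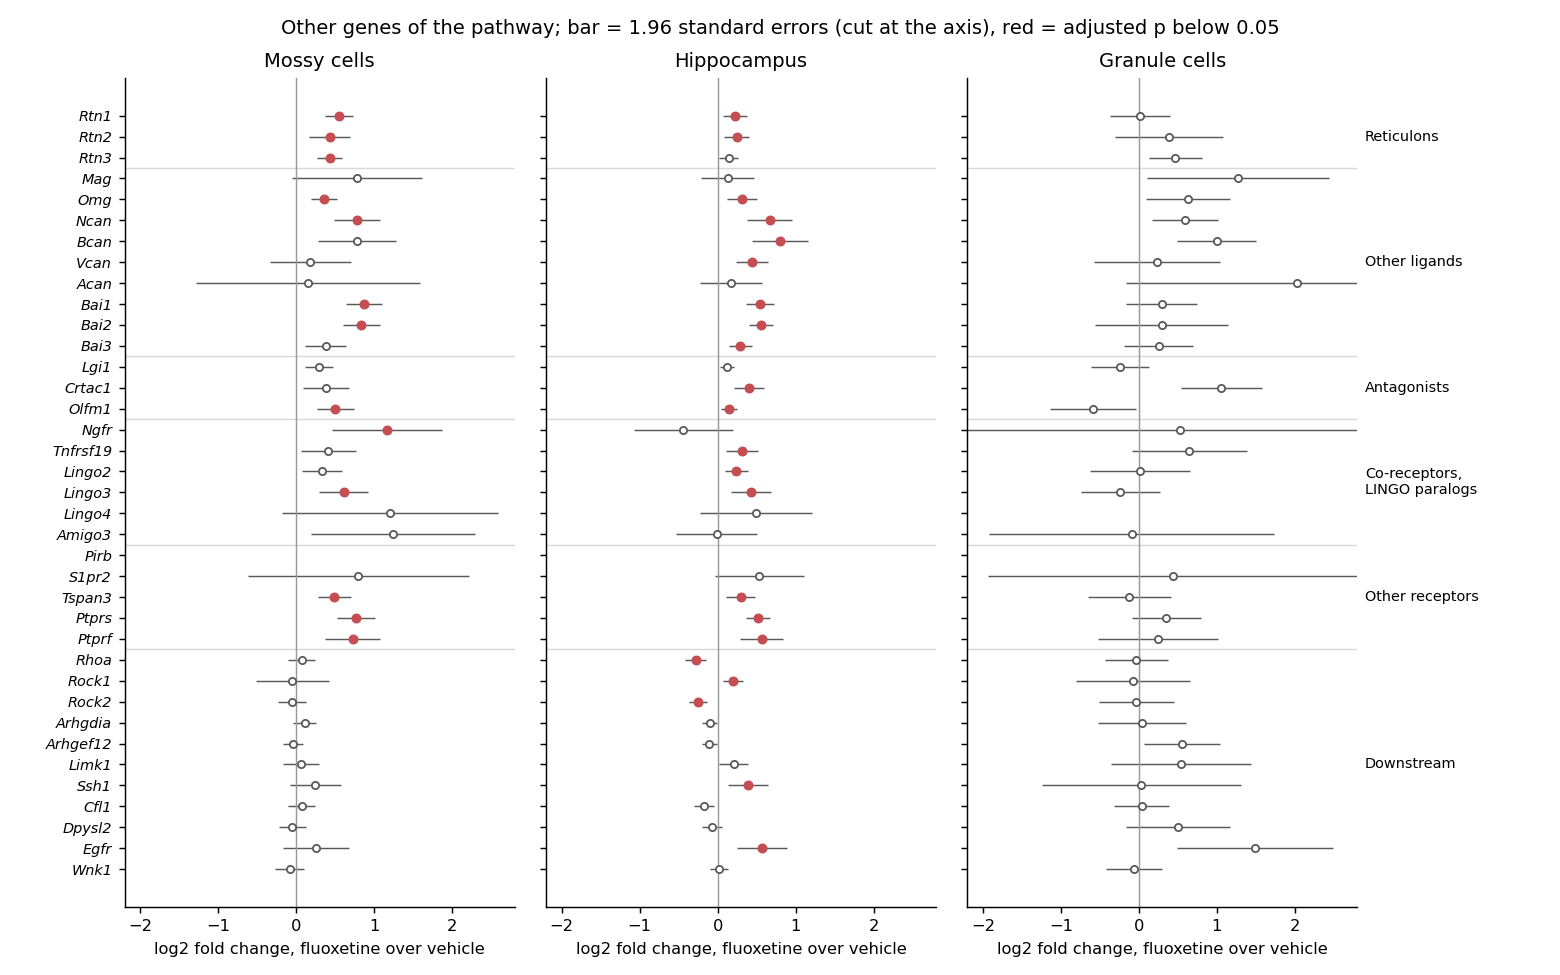
Log2 fold change, fluoxetine over vehicle, of the 37 other genes of the pathway by role, in mossy cells, hippocampus and granule cells; bars are 95% intervals, some of them cut at the axis, and red points have an adjusted p below 0.05. The red points number 13 in mossy cells, 22 in hippocampus and 0 in granule cells.

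The genes with the most similar profile over the 34 libraries were sought among 9273 genes, by the root mean square difference of centred log2 CPM. Those nearest to Rtn4r were Lrp12 (0.24), Porcn (0.24) and Sppl3 (0.24), and those nearest to Lingo1 were Sec61a1 (0.20), Myadm (0.22) and Lphn1 (0.23). Rtn4rl1 was nearest to Lrrc8b (0.24), Man2a2 (0.25) and Icam5 (0.25), and Rtn4rl2 to Bai2 (0.37), Cacng8 (0.40) and Srebf2 (0.41). Rtn4, which varied least, was nearest to Rpl14, Dazap2 and Whsc1l1 (0.16 each). No gene of the 5 was among the 3 nearest of another. Lingo1 was at rank 319 for Rtn4r and rank 258 for Rtn4rl1.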

How the data were processed

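RNA was measured in 34 libraries. The submitters' processing notes name GRCm38, edgeR, HTSeq 0.7.2 and STAR 2.5.2b, with no roles given; annotation and strand setting are not given in the sources used here. Per the labels' protocols, amplified cDNA was read as paired ends. The deposited values are counts, raw reads per gene symbol in 3 tables; every value was checked to be whole. Of 24485 symbols, 22753 matched GENCODE M21 directly and 929 through 1 RefSeq synonym. Replicates of a group differed beyond sampling noise in all 84 pairs (chi-square per degree of freedom of 6.74 or more).

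The members, gene lists and tests were chosen with earlier results of these data known. Each fluoxetine comparison was fitted within its source with edgeR 4.0.16 in R 4.3.3 (TMM, filterByExpr, glmQLFit, glmQLFTest, two-sided); contrasts between sources and interactions used joint fits of 4 group means. P-values were adjusted (Benjamini-Hochberg) over all genes in each of the 9 comparisons, at a threshold of 0.05. CPM use TMM-scaled library sizes over all 34 libraries, and CPM per kb divides by the union of annotated exons. Intervals of log2 fold changes are normal 95% intervals from the standard errors. Named were the 5 genes, then per list up to 4 passing genes by smallest p and up to 2 not passing; likeness used a mean of at least 5 CPM in each source and a pseudocount of 0.5, and left out clone and predicted names. Alternatives were other scalings (DESeq2 1.42.0 size factors, upper quartile), filters and tests (DESeq2, limma 3.58.1 voom), removal of Rn45s and Lars2, a loess offset for GC content and length (span 0.3), the replicate block, and libraries left out; leaving out vehicle libraries 1, 2 and 4, or hippocampus fluoxetine libraries 2 and 4, was added after seeing the data. The fits were tested on simulated data. Replicate numbers were taken to pair mossy cells with hippocampus, since the deviations of same-numbered libraries correlated in all 7 fluoxetine pairs (r from 0.101 to 0.555) and all 6 vehicle pairs (0.155 to 0.368). Counts are not independent molecules, since PCR duplicates cannot be removed.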

Additional observations from a re-analysis of the deposited data

Results flagged for a closer look

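Of 30 combinations of gene and group checked for a library far from the others, 2 had one, where chance gives about 1 in 20. Rtn4 in mossy-cell fluoxetine library 4 was at 458 CPM, and the next highest library of that group was at 391 CPM. Lingo1 in hippocampus fluoxetine library 2 was at 340 CPM, with the next highest at 247 CPM. Library 4 of that mossy-cell group also had the highest summed microglia markers, at 62.5 CPM against a median of 11.6 CPM; the part of these cells in the Rtn4 value was not tested.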

How the results depend on the processing

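Limits: the choroid plexus gene Ttr was high in vehicle libraries 1, 2 and 4 of mossy cells and hippocampus and in 4 of 8 granule-cell libraries, granule cells have 4 libraries a group, and Rtn4rl2 counts there are low. The causes of the changes below were not tested.

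Of the 5 genes, the number past the threshold in mossy cells (3) was 1 without vehicle libraries 1, 2 and 4. In hippocampus (5) it was 3 with the GC content and length offset, alone or with the replicate block, and 0 without vehicle libraries 1, 2 and 4. Between mossy-cell and hippocampus vehicle libraries (2) it was 4 with limma-voom, 0 with the offset and 1 without vehicle libraries 1, 2 and 4 of both. Between granule and mossy cells (1) it was 0 with DESeq2 size factors, upper quartile scaling, a mean CPM of at least 5, limma-voom or the block, and 2 with DESeq2, the offset, or block and offset. Between granule cells and hippocampus (2) it was 1 with the block, alone or with the offset. The interactions (0) gave 1 for mossy cells minus hippocampus with block and offset (Rtn4, 0.30, adjusted p = 0.0406) and 1 for granule minus mossy cells with DESeq2. Leaving out single libraries gave 3 in mossy cells, 4 to 5 in hippocampus, 0 in granule cells, 2 to 3 for mossy cells against hippocampus, 0 to 2 for granule against mossy cells, 0 to 1 for their interaction and 1 to 2 for granule cells against hippocampus.

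Of all genes, the number called in mossy cells (1325) was 753 without fluoxetine libraries 2 and 4, 28 without vehicle libraries 1, 2 and 4, and 773 to 1744 without single libraries, with 855, 837, 773 and 859 without vehicle libraries 2, 3, 4 and 6. In hippocampus (4705) it was 1031 without vehicle libraries 1, 2 and 4, and 3447 to 5046 without single libraries. Granule cells had 0, and 77 with DESeq2. For mossy cells minus hippocampus (7) it was 23 with DESeq2 size factors or a mean CPM of at least 5, 33 with upper quartile scaling, 109 with DESeq2, 17 with limma-voom, 4 with the offset, 116 with the replicate block, 210 with both, 25 without mossy-cell fluoxetine libraries 2 and 4, 23 without those of both sources, 0 without vehicle libraries 1, 2 and 4 of both, and 2 to 41 without single libraries. Granule against mossy cells gave 4256 with block and offset (7123 as reported). For granule minus mossy cells (28) it was 43 with a mean CPM of at least 5, 276 with DESeq2, 1 with limma-voom, 3 with the offset, 0 with the block, with block and offset, or without mossy-cell fluoxetine libraries 2 and 4, and 0 to 354 without single libraries. Granule cells against hippocampus (4782) gave 1762 with the block and 3006 with block and offset. For granule cells minus hippocampus (320) it was 199 with no filter, 1037 with DESeq2, 0 with limma-voom, the block, or block and offset, and 226 to 1348 without single libraries. Single libraries gave 9833 to 10624, 6783 to 7560 and 4344 to 5615 in the 3 vehicle contrasts between sources.

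The log2 fold change turned sign for Rtn4 in mossy cells with upper quartile scaling (-0.0019) and without fluoxetine libraries 2 and 4 (-0.013), and in granule cells for Rtn4r with limma-voom (-0.084), the offset (-0.012) and block and offset (-0.018), for Rtn4rl2 with limma-voom (-0.26) and for Lingo1 with the offset (-0.015). Between mossy-cell and hippocampus vehicle libraries, the offset gave 0.13 for Rtn4 and -0.10 for Rtn4rl2, and block and offset 0.12 and -0.16. The offset, and block and offset, gave Lingo1 0.18 and 0.19 for granule against mossy cells and 0.37 and 0.42 for granule cells against hippocampus. Interactions turned for granule minus mossy cells in Rtn4rl2 (0.026 with the offset, 0.046 without mossy-cell fluoxetine libraries 2 and 4) and for granule cells minus hippocampus in Rtn4 (-0.019 with a mean CPM of at least 5) and Rtn4rl1 (0.19 with limma-voom). Without single libraries the ranges that crossed 0 were -0.020 to 0.042 for Rtn4 in mossy cells, -0.16 to 0.14 for Rtn4r and -0.61 to 0.74 for Rtn4rl2 in granule cells, -0.13 to 0.16 for Rtn4rl2 in mossy cells minus hippocampus, -1.10 to 0.22 for Rtn4rl2 in granule minus mossy cells, -0.16 to 0.014 for Lingo1 in granule cells against hippocampus, and -0.059 to 0.16 for Rtn4, -0.27 to 0.079 for Rtn4rl1 and -1.11 to 0.22 for Rtn4rl2 in granule cells minus hippocampus.

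The replicate block was run in every fit, by number within a source and by treatment and number in joint fits. Outside mossy cells with hippocampus, a pairing by number was not established, so block results there rest on an assumed pairing. In vehicle libraries, same-numbered deviations correlated at -0.083 to 0.027 between granule and mossy cells and at -0.075 to 0.018 between granule cells and hippocampus. Between fluoxetine and vehicle libraries, correlations were 0.098 to 0.267 in granule cells, -0.075 to 0.132 in hippocampus and -0.156 to 0.103 in mossy cells. The same number gave the highest correlation in 3 of 4 granule-cell pairs, 0 of 6 in hippocampus and 1 of 6 in mossy cells. What links same-numbered granule-cell libraries was not tested.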
